A study of Mus musculus with 6 samples.

Results

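The BRICHOS family genes Itm2a, Itm2b, Itm2c and Tnmd were followed through single-cell RNA sequencing of stromal vascular cells from iWAT (inguinal white adipose tissue) of young and aged mice. They were found by gene symbol and make up 4 of the 31053 genes counted. Itm2a was selected on its lower level in aged adipose stem and progenitor cells (ASPCs) of these same libraries, so its values at the 2 ages are described here without a test, and the other 3 genes were chosen by protein family. The 6 libraries hold cells of C57BL/6 male mice, 1 per combination of age (9 or 57 weeks) and temperature. All mice were first kept at 30 °C. TN mice then stayed at 30 °C, 3D mice spent the last 3 days at 6 °C, and 14D mice spent 14 days at 6 °C. CD45+ immune cells had been sorted out, the study obtained mice of 2 substrains (C57BL/6JN or C57BL/6J) without saying which library holds which, and the number of mice per library is not given in the sources used here. With 1 library per age and temperature, an age difference was judged over 3 young and 3 aged libraries. The p-values of the fits rest on the spread left after the age and temperature terms, with each gene's variance drawn toward that of other genes. They do not measure spread between replicate libraries, as there are none.

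BRICHOS proteins cross the membrane once and carry a folded domain on the luminal or outer side that helps keep a hydrophobic partner sequence from aggregating. ITM2 proteins are cut by furin-like convertases, and ITM2B is further processed by ADAM10 and by the intramembrane protease SPPL2, and binds the amyloid precursor protein. ITM2A is known from cartilage, muscle and T cell differentiation. Tenomodulin, the product of Tnmd, is a marker of tendon and is also made in fat, and its closest relative chondromodulin (Cnmd) is made in cartilage.

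Cells were placed in classes by their UMIs (unique molecular identifiers, each marking 1 captured transcript) for fixed marker lists that contain none of the 4 genes. Of 57326 cells that passed the quality limits, 49200 were ASPCs, among them 21156 Dpp4+ fibroblasts (the most upstream progenitors of this tissue), 17316 Icam1+ preadipocytes and 4835 Cd142+ fibroblasts, and the rest included 3838 endothelial cells, 839 SMC/pericytes (smooth muscle cells and pericytes), 120 Schwann cells and 257 immune cells. Every class had at least 3 of its own markers among its 10 leading genes and no marker of another class. The gates used these same lists, so this is no independent check of the classes. Per 1000000 UMIs, endothelial cells (44748 to 64049) and SMC/pericytes (16359 to 33042) held more of the Icam1+ list than Icam1+ preadipocytes did (14321 to 15991). The libraries held 52068837 to 88508349 UMIs. The aged 14D library stood apart, with a median of 2588 UMIs per barcode against 6232 to 8954 in the others and 13.6% of its cells carrying markers of 2 or more lineages against 2.41 to 4.52%. Levels are given as CPM (UMIs per 1000000 UMIs of the class). The Cd142+ fibroblasts of this library also held 113 CPM of the endothelial list, against 12.5 to 14.8 in the other libraries. Only 524 of 67565 distinct barcodes occurred in more than 1 library.

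Itm2a lies on chromosome X from 107397099 to 107403376 on the minus strand (GRCm38), in 6 exons that encode 263 amino acids, between Gpr174 and Tbx22. Itm2b lies on chromosome 14 from 73362226 to 73385289 on the minus strand, Itm2c on chromosome 1 from 85894281 to 85908675 on the plus strand, and Tnmd on chromosome X from 133850980 to 133865577 on the plus strand. No annotated gene overlaps any of the 4. Their start regions differ in base composition, and those of Itm2a, Itm2b and Tnmd are shown because these 3 genes differ most in level and in their values at the 2 ages. The windows are 300 bases long and include the gene start, as RefSeq gives it on GRCm38.p6, and CG dinucleotides are in capitals. They span chrX:107403311-107403610 on the minus strand for Itm2a, chr14:73385240-73385539 on the minus strand for Itm2b and chrX:133850758-133851057 on the plus strand for Tnmd.
Itm2a: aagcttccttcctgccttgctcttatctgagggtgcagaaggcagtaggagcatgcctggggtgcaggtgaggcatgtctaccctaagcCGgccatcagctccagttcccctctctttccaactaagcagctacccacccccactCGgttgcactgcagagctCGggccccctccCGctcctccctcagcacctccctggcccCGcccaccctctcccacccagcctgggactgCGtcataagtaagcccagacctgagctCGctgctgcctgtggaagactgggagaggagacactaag
Itm2b: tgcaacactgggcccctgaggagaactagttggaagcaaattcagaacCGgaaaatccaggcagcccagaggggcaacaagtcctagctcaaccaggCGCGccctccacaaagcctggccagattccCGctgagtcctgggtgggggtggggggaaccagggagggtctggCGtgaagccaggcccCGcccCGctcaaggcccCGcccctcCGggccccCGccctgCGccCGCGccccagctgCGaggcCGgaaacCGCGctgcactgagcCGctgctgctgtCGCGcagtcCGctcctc
Tnmd: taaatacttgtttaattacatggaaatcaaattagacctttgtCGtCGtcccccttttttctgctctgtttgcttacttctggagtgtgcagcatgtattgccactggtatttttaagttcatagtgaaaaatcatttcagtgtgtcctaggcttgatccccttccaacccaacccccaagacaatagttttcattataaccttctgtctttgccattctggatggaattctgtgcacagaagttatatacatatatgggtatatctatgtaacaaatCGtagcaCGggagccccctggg
The window of Itm2a holds 7 CG dinucleotides, that of Itm2b 21, that of Itm2c 20 and that of Tnmd 4, and the median over 32851 mouse windows is 7. The letters TATAA, searched on both strands, occur in the windows of Tnmd and Itm2c and in 24.9% of all windows. GGGCGG, searched in the same way, occurs in those of Itm2a, Itm2b and Itm2c and in 35.7% of all windows.

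Itm2a was abundant in all 3 ASPC classes of young mice and lower in each of them in aged mice. In Dpp4+ fibroblasts its level was 248, 238 and 257 CPM in the young TN, 3D and 14D libraries and 27.5, 29.0 and 33.1 CPM in the aged libraries in the same order. The groups did not overlap, and the temperatures within an age lay close together. The log2 fold change, aged over young, was -3.08, and on the ratio of means young cells held 8.28 times more than aged cells. In Icam1+ preadipocytes the level was 219, 173 and 203 CPM in young and 52.2, 40.3 and 41.7 CPM in aged libraries, a log2 fold change of -2.14. Cd142+ fibroblasts held 261, 193 and 235 CPM in young and 85.5, 38.5 and 54.8 CPM in aged libraries, a log2 fold change of -1.99. In these 3 classes every aged library lay below every young library, as did 10.6% of all genes tested in Dpp4+ fibroblasts. The same share was 11.3% for Icam1+ preadipocytes and 11.7% for Cd142+ fibroblasts, and nothing is read from this for Itm2a, which was selected on it. Without the aged 14D library the 3 values were -3.10, -2.07 and -1.92, and without the aged TN library they were -3.03, -2.17 and -2.20. With temperature as a term, the young library of the same temperature then adds nothing to the value either.

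**Figure D1:**
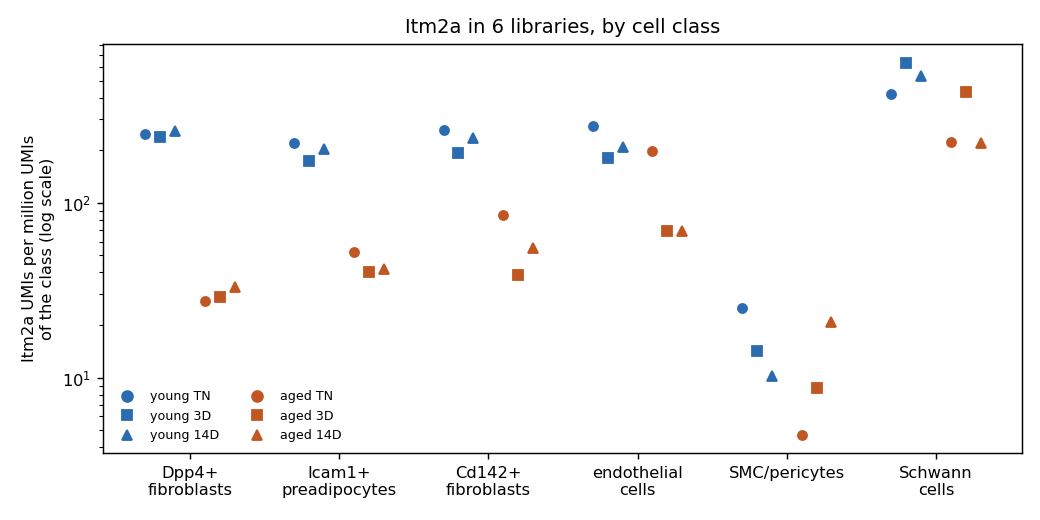
Itm2a UMIs per 1000000 UMIs of the class (y axis, log scale) in each of the 6 libraries (points; blue young, orange aged; circle TN, square 3D, triangle 14D) for 6 cell classes (x axis). Aged points lie below young points in the 3 ASPC classes, overlap with them in endothelial cells and SMC/pericytes, and Schwann cells are highest.

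The order of the ASPC classes was not the same at the 2 ages. Among aged libraries Dpp4+ fibroblasts had the lowest Itm2a of the 3 classes at each temperature, with a mean of 29.9 ± 2.89 CPM (SD, n = 3) against 44.7 ± 6.51 in Icam1+ preadipocytes and 59.6 ± 23.9 in Cd142+ fibroblasts. Among young libraries the means were 248 ± 9.66 in Dpp4+ fibroblasts, 230 ± 33.9 in Cd142+ fibroblasts and 199 ± 23.7 in Icam1+ preadipocytes, and Dpp4+ and Cd142+ fibroblasts overlapped. These age differences between classes were not tested.

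The number of cells with an Itm2a transcript differed along with the level. Each cell was thinned to 2000 UMIs so that depth did not set the share. In Dpp4+ fibroblasts 35.4% (exact binomial 95% interval 33.8 to 36.9), 33.9% and 36.1% of cells had an Itm2a UMI in the young TN, 3D and 14D libraries, against 4.72% (3.83 to 5.74), 5.66% and 6.11% in the aged libraries. The shares were 29.0 to 32.7% in young and 6.79 to 8.96% in aged Icam1+ preadipocytes, and 25.3 to 32.1% in young and 7.20 to 13.5% in aged Cd142+ fibroblasts. Without thinning, at median depths of 6454.5 to 9736 UMIs per cell, 70.8 to 75.0% of young and 12.1 to 13.0% of aged Dpp4+ fibroblasts had an Itm2a UMI. The cells that had one also held fewer, with a mean of 1.36 to 1.40 Itm2a UMIs per such cell in young and 1.12 to 1.15 in aged Dpp4+ fibroblasts at 2000 UMIs. Cells with 2 or more made up 9.56 to 10.7% of young and 0.497 to 0.743% of aged Dpp4+ fibroblasts. At the same depth 0 to 3.74% of SMC/pericytes had an Itm2a UMI, and each ASPC class held more Itm2a CPM than the SMC/pericytes of its own library in 6 of 6 libraries. At aged 14D the share was 3.66% of 82 SMC/pericytes (95% interval 0.761 to 10.3). That interval holds the shares of Dpp4+ fibroblasts (6.11%), Icam1+ preadipocytes (8.04%) and Cd142+ fibroblasts (8.71%) there. The part of free RNA in these values was not tested. The aged 14D library lost 663 of 3280 Dpp4+ fibroblasts, 714 of 2468 Icam1+ preadipocytes and 494 of 1217 Cd142+ fibroblasts to the limit of 2000 UMIs, and no other library lost over 22 cells of an ASPC class taken alone. These intervals cover counting error only.

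**Figure D2:**
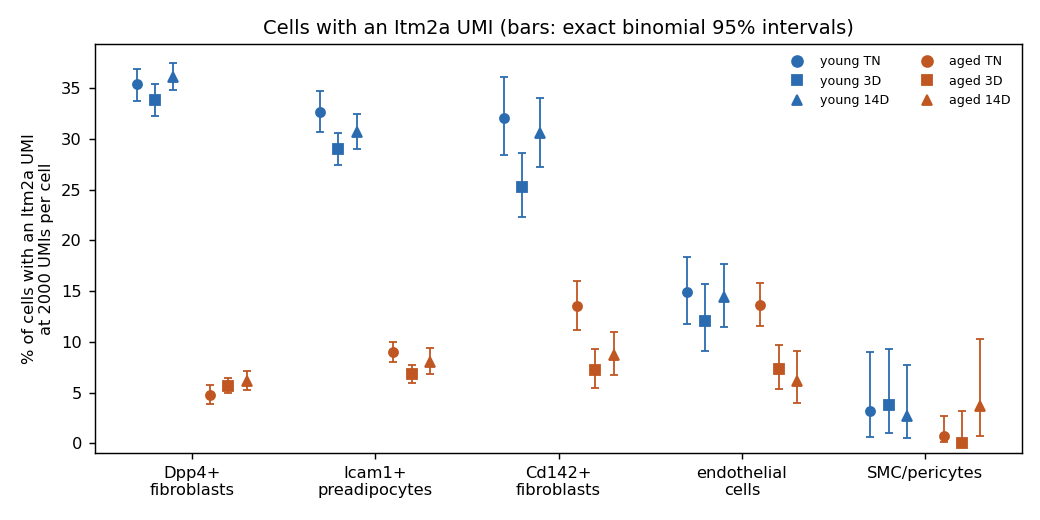
Percentage of cells with at least 1 Itm2a UMI after thinning to 2000 UMIs (y axis) per library (points; blue young, orange aged; circle TN, square 3D, triangle 14D) in 5 cell classes (x axis), with exact binomial 95% intervals as bars. Aged ASPC classes lie between 4.72 and 13.5% and young ones between 25.3 and 36.1%, while SMC/pericytes stay at or under 3.74% in all libraries.

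Within Dpp4+ fibroblasts the lower level in aged mice was seen in more than 1 cluster of cells. Clusters came from all variable genes without the 4 members. The largest, cluster 0, held 257 to 284 CPM in young and 31.9 to 38.6 CPM in aged libraries, and cluster 6 held 107 to 140 CPM in young and 7.63 to 15.2 CPM in aged libraries. In both, the young and aged values did not overlap. Nothing is read from this, as Itm2a was selected on its age difference in these cells, and the share of all genes was not computed for clusters. Libraries differed in how the class was spread over clusters. Cluster 0 held 80.0 to 81.7% of young Dpp4+ fibroblasts and 77.5% and 62.2% of those at aged 3D and 14D, but 20% at aged TN, where 74.9% fell in cluster 7 at 25.2 CPM. At aged 14D 22.2% fell in cluster 3, a cluster of shallow cells, at 37.5 CPM. Icam1+ preadipocytes of the aged TN library likewise fell mostly (92.0%) in cluster 2, which held 11.3 to 13.4% of young ones, at 50.9 CPM against 196 to 255 CPM in young cells of that cluster. The 23 to 56 cells per library placed in the Cd142+ class by markers but in cluster 0 by clustering held 441 to 575 CPM in young and 33.6 to 58.1 CPM in aged libraries, the highest young values among the class and cluster groups of at least 20 ASPCs.

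Endothelial cells carried Itm2a in few cells. In young libraries their mean was close to that of all ASPCs (222 against 229 CPM). In aged libraries it was above that of all ASPCs (112 against 41.3 CPM). The level in endothelial cells was 274, 181 and 209 CPM in the young TN, 3D and 14D libraries and 199, 69.4 and 68.8 CPM in the aged libraries. The groups overlapped, because the aged TN library lay above the young 3D library. The log2 fold change was -1.03, or -1.44 from the 3D and 14D libraries when the aged TN library was left out. Only 12.1 to 14.9% of young and 6.15 to 13.6% of aged endothelial cells had an Itm2a UMI at 2000 UMIs, and those in the young libraries held 2.25 to 3.01 of them on average, more than the 1.25 to 1.67 of positive ASPCs of the 3 young classes.

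Most of these transcripts came from 1 cluster. Cluster 10 (596 gated cells) was led by Plvap, a protein of the diaphragms of fenestrated and venular endothelium, Lrg1, Ehd4 and Itm2a itself, genes named here after their values were seen. It held 1111, 700 and 851 CPM of Itm2a in the young TN, 3D and 14D libraries and 738, 388 and 554 CPM in the aged libraries, and supplied 553 of 590, 311 of 353 and 434 of 457 endothelial Itm2a UMIs in the young TN, 3D and 14D libraries and 842 of 885, 149 of 172 and 89 of 112 in the aged ones. The larger cluster 5 (3097 cells) was led by Car3 and Cfd, genes known from adipocytes, and Hbb-bs, a globin gene of red cells, followed by Cldn5, a tight junction gene of endothelium, and Car4, and had Hba-a1, another globin gene, among its 10 leading genes. Its Itm2a stood at 9.80 to 16.6 CPM across all 6 libraries, within the range of SMC/pericytes. At every temperature cluster 10 held less Itm2a in the aged than in the young library, although the ranges overlapped between temperatures. Its share of endothelial cells was 18, 18.2 and 19.4% in young and 17.9, 11.4 and 6.14% in the aged TN, 3D and 14D libraries, with 32 cells in the last. In the aged 3D and 14D libraries both the share of this cluster and the level inside it were lower than in the young library of the same temperature, and the part of each in the endothelial level was not tested. The 6 genes of the lymphatic endothelial list were detected in cluster 10 at 10.2 to 130 CPM and at 0.0902 to 25.6 CPM in cluster 5.

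**Figure D3:**
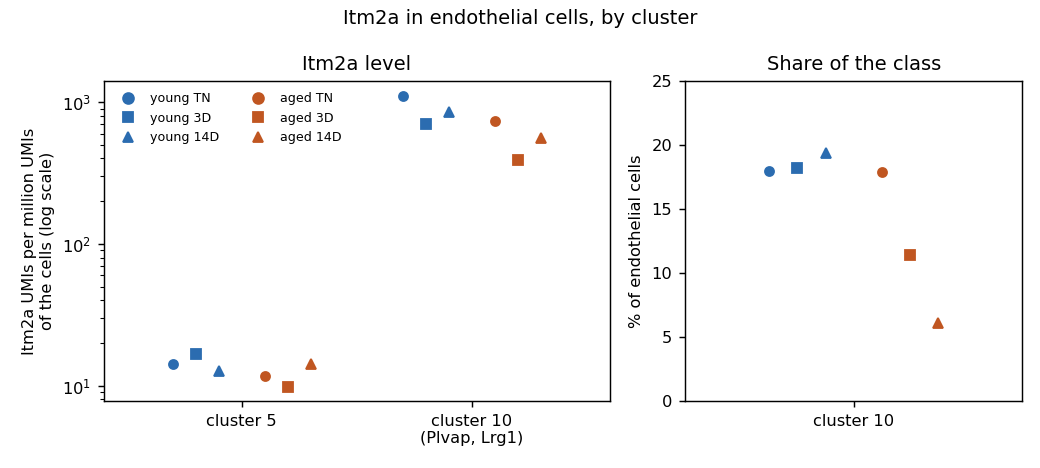
Left, Itm2a UMIs per 1000000 UMIs (y axis, log scale) in the endothelial cells of cluster 5 and cluster 10 (x axis), and right, cluster 10 as a percentage of endothelial cells (y axis), per library (points; blue young, orange aged; circle TN, square 3D, triangle 14D). Cluster 10 lies at 388 to 1111 and cluster 5 at 9.80 to 16.6, and the share of cluster 10 is lowest in the aged 14D library at 6.14%.

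Among all classes Schwann cells had the highest Itm2a in each of the 6 libraries, and SMC/pericytes had the lowest mean over libraries. Immune cells lay below SMC/pericytes in 3 of the 6 libraries. The 13 to 37 Schwann cells per library held 417, 634 and 531 CPM in young and 222, 431 and 220 CPM in aged libraries, from 9 to 44 UMIs each, and the young and aged ranges overlapped. SMC/pericytes held 4 to 12 Itm2a UMIs per library, at 10.2 to 25.1 CPM in young and 4.71 to 20.7 CPM in aged libraries. Over all 6 libraries the class means ran from 409 ± 166 CPM (SD, n = 6) in Schwann cells through 167 ± 82.1 in endothelial cells, 145 ± 96.7 in Cd142+ fibroblasts, 139 ± 119 in Dpp4+ fibroblasts and 122 ± 85.7 in Icam1+ preadipocytes to 13.9 ± 7.69 in SMC/pericytes. These SDs pool both ages. Among young libraries endothelial cells (181 to 274 CPM), Dpp4+ fibroblasts (238 to 257) and Cd142+ fibroblasts (193 to 261) overlapped, while Icam1+ preadipocytes (173 to 219) lay below all Dpp4+ values. Among aged libraries Dpp4+ fibroblasts (27.5 to 33.1 CPM) lay below all Icam1+ values (40.3 to 52.2), which overlapped with Cd142+ fibroblasts (38.5 to 85.5), and those with endothelial cells (68.8 to 199).

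Temperature, unlike age, was not a contrast on which Itm2a was selected, and it was tested for all 4 genes with age as a term. Itm2a was highest at TN at both ages in Icam1+ preadipocytes, Cd142+ fibroblasts and endothelial cells, but no member passed the threshold of 0.05 in any class. In Cd142+ fibroblasts the TN library was the highest of its age in both young and aged mice. The log2 fold change of Itm2a there was -0.75 (SE 0.14) at 3D and -0.38 (SE 0.14) at 14D against TN, with an adjusted p of 0.0518. In endothelial cells the changes were -1.03 (SE 0.21) and -0.89 (SE 0.21), with an adjusted p of 0.0608. Both p-values lie just above the threshold, and other settings moved them across it, in 10 of 14 for Cd142+ fibroblasts and in 6 of 13 for endothelial cells. In Icam1+ preadipocytes the log2 fold changes of Itm2a were -0.34 (SE 0.08) and -0.20 (SE 0.08), with an adjusted p of 0.108, and in Dpp4+ fibroblasts -0.03 (SE 0.07) and 0.16 (SE 0.07), with an adjusted p of 0.213. Over all genes tested, temperature called 6.83% in Dpp4+ fibroblasts, 3.99% in Icam1+ preadipocytes, 1.61% in Cd142+ fibroblasts, 1.40% in all ASPCs together, 0.723% in endothelial cells and 1.16% in SMC/pericytes. None of the 21 tests of a member was among them, and 6 had an unadjusted p under 0.05 (Itm2a in Icam1+ preadipocytes, Cd142+ fibroblasts, all ASPCs and endothelial cells, Itm2c in Icam1+ preadipocytes and Tnmd in Cd142+ fibroblasts). Of all genes, 3285 of 13249 had such a p in Dpp4+ fibroblasts, 3036 of 13193 in Icam1+ preadipocytes and 1573 of 11282 in Cd142+ fibroblasts. The counts were 3260 of 14864 in all ASPCs, 1063 of 10231 in endothelial cells and 652 of 6791 in SMC/pericytes. All ASPCs include the cells of the ASPC classes, so these tests overlap, and nothing is read from the 6.

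Itm2b, the amyloid-linked and most abundant of the 4 members here, did not pass the test for age in any class. In Dpp4+ fibroblasts it stood at 1962, 1741 and 1782 CPM in the young TN, 3D and 14D libraries and at 1865, 1758 and 1803 CPM in the aged libraries. The groups overlapped, and the log2 fold change was -0.04 (SE 0.07, 95% interval -0.20 to 0.12, adjusted p = 0.754). Icam1+ preadipocytes held the most, 3271, 2802 and 3157 CPM in young and 3198, 2972 and 3129 CPM in aged libraries, a change of 0.02 (-0.18 to 0.23, adjusted p = 0.895). Cd142+ fibroblasts held 2311 to 2608 CPM in young and 2362 to 2776 CPM in aged libraries (0.05, -0.16 to 0.26, adjusted p = 0.820). In endothelial cells the change was 0.01 (-0.15 to 0.16, adjusted p = 0.985) and in SMC/pericytes -0.01 (-0.27 to 0.25, adjusted p = 0.991). These intervals hold differences of at most 0.27 on the log2 scale in either direction. At 2000 UMIs 95.9 to 97.3% of Dpp4+ fibroblasts and 99.1 to 99.7% of Icam1+ preadipocytes had an Itm2b UMI, close to all cells at both ages, so these shares can show little change.

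Itm2c, the remaining ITM2 gene, stood at 153 to 216 CPM in the ASPC classes and also did not pass the test for age. Its level in Dpp4+ fibroblasts was 184, 175 and 173 CPM in the young and 175, 170 and 153 CPM in the aged libraries, a log2 fold change of -0.12 (SE 0.06, -0.25 to 0.01, adjusted p = 0.213). In Icam1+ preadipocytes and Cd142+ fibroblasts the changes were -0.04 (-0.17 to 0.10, adjusted p = 0.704) and 0.03 (-0.15 to 0.21, adjusted p = 0.878). SMC/pericytes held 152, 170 and 189 CPM in young and 132, 123 and 119 CPM in aged libraries, and endothelial cells 108, 134 and 120 against 103, 98.0 and 98.3 CPM. In both classes every aged library lay below every young one, as for 10.4% of all genes in SMC/pericytes and 10.9% in endothelial cells, and the changes of -0.37 (SE 0.17, adjusted p = 0.40) and -0.22 (SE 0.10, adjusted p = 0.333) did not pass after adjustment, with unadjusted p of 0.0378 and 0.0432 in the same test. For temperature, the log2 fold change of Itm2c in Icam1+ preadipocytes was -0.26 (SE 0.07) at 3D and -0.27 (SE 0.07) at 14D, with an adjusted p of 0.0965.

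Tnmd, the tendon and fat gene of the family, was found in few cells of every ASPC class. Of 246 Tnmd UMIs in ASPCs, 131 came from Cd142+ fibroblasts, 51 from Dpp4+ fibroblasts, 21 from Icam1+ preadipocytes and 43 from ASPCs between classes. By cells with a Tnmd UMI these were 35, 27, 19 and 25, out of 4835 Cd142+ fibroblasts, 21156 Dpp4+ fibroblasts, 17316 Icam1+ preadipocytes and 5893 ASPCs between classes. Cd142+ fibroblasts held 22, 41 and 30 Tnmd UMIs (4.00, 7.18 and 5.64 CPM) in the young TN, 3D and 14D libraries and 9, 26 and 3 UMIs (1.79, 5.75 and 0.724 CPM) in the aged libraries. Single cells carried much of this, as 18 of the 26 UMIs at aged 3D and 20 of the 30 at young 14D lay in 1 cell each. The groups overlapped through the aged 3D library, and the log2 fold change was -1.07 (SE 0.39, -1.91 to -0.22, adjusted p = 0.118). It was -1.87 when either 3D library was left out. With temperature as a term, both of these fits give the same estimate, from the TN and 14D libraries. In Dpp4+ fibroblasts the UMIs were 16, 12 and 15 in young and 0, 4 and 4 in aged libraries, a change of -1.63 (SE 0.61, -2.98 to -0.28, adjusted p = 0.0976). The 0 UMIs at aged TN came from 14780760 UMIs and allow up to 0.203 CPM, where the young libraries held 0.384 to 0.452 CPM. That limit takes UMIs as independent, but the young UMIs lay in 11, 6 and 6 cells. By cells, 0 of 2033 at aged TN allow up to 0.148%, against 0.308, 0.158 and 0.121% at young TN, 3D and 14D. The 0 is thus not shown to lie below every young library. Over all ASPCs together, 58, 60 and 63 UMIs in young stood against 20, 33 and 12 in aged libraries, and the change of -1.03 (SE 0.28, -1.69 to -0.36) had an adjusted p of 0.0654. Icam1+ preadipocytes had 1 to 5 UMIs per library and endothelial cells and SMC/pericytes 0 in young and 1 or 2 in aged libraries, too few to test. After thinning to 2000 UMIs 0.396 to 0.546% of young Cd142+ fibroblasts and 0.377, 0.277 and 0% of the aged TN, 3D and 14D cells had a Tnmd UMI (exact two-sided permutation p = 0.1, the smallest that 3 against 3 libraries allow). The 0 of 723 cells at aged 14D allow a share of up to 0.415%.

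The Tnmd UMIs sat in 106 of 49200 ASPCs, and single cells held up to 20 of them. There were 32, 22 and 19 such cells in the young TN, 3D and 14D libraries and 15, 10 and 8 in the aged libraries. Of the 8 genes of the tenocyte list Chad, Cilp2 and Kera were at 0 in them. Scx, a defining transcription factor of tendon cells, was in 1 cell (0.943%, against 0.361% of the other ASPCs), Mkx in 2 (1.89% against 0.0306%), Comp in 2 (1.89% against 0.238%), Thbs4 in 1 (0.943% against 0.391%) and Fmod in 5 (4.72% against 1.76%). Each of these 5 markers was thus in a larger share of the cells with Tnmd, from 1 to 5 cells each, and no test was run. These shares were not thinned, and the cells with Tnmd were deeper in every library, as at aged 14D (median 6305.5 against 3982.5 UMIs). Of the 106 cells 35 were Cd142+ fibroblasts, where the tenocyte list was higher than in Dpp4+ fibroblasts (0.735 to 2.16 CPM). The part of depth and class in the shares was not tested. The summed tenocyte list in Cd142+ fibroblasts ran from 14.4 to 32.5 CPM in young and from 14.5 to 38.9 CPM in aged libraries, and its part in the Tnmd values was not tested. In the 3 young libraries the cells with Tnmd held 485, 550 and 517 CPM of Itm2a, from 93 to 190 Itm2a UMIs, against 242, 206 and 237 CPM in the other ASPCs. In the aged libraries they held 2 to 5 Itm2a UMIs, too few to compare.

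**Figure D4:**
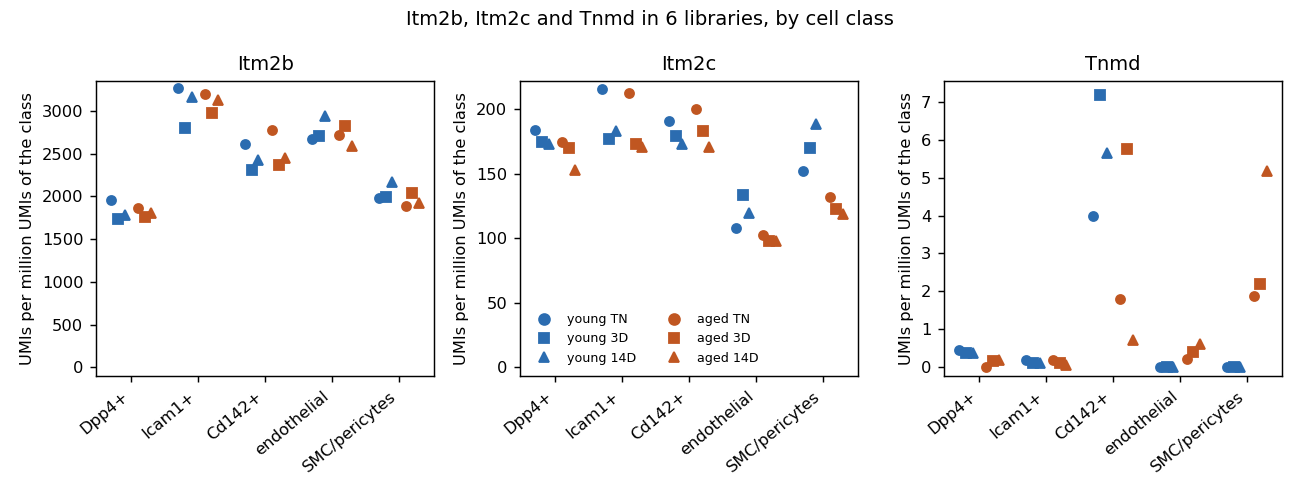
UMIs per 1000000 UMIs of the class (y axes) for Itm2b, Itm2c and Tnmd (panels) in 5 cell classes (x axes), 1 point per library (blue young, orange aged; circle TN, square 3D, triangle 14D). Itm2b and Itm2c of young and aged libraries lie side by side in the ASPC classes, Tnmd in Cd142+ fibroblasts runs from 0.724 to 7.18, and the Tnmd points of aged SMC/pericytes rest on 1 or 2 UMIs each.

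For age, the share of all genes that passed was 17.2% in Dpp4+ fibroblasts, 12.4% in Icam1+ preadipocytes, 8.62% in Cd142+ fibroblasts, 10.8% in all ASPCs together, 1.25% in endothelial cells and 0.856% in SMC/pericytes. Of Itm2b, Itm2c and Tnmd none passed in any of them. The age effects of these 3 genes did not differ between ASPC classes past the threshold either. The nearest was Itm2c in Cd142+ against Dpp4+ fibroblasts, a difference of 0.16 (SE 0.08, adjusted p = 0.475), where 1.57% of all genes passed. That share was 5.10% for Icam1+ preadipocytes against Dpp4+ fibroblasts and 2.25% for Cd142+ fibroblasts against Icam1+ preadipocytes.

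The wider family and its processing machinery were described with 4 lists of 21 genes: the other BRICHOS genes, the proprotein convertases, the ectodomain and intramembrane proteases, and the amyloid precursor family. In Dpp4+ fibroblasts 16 of the 21 were tested, and with age 0 rose and 7 fell, with a median log2 fold change of -0.17 beside 0.00 over all genes. Of all 12956 genes tested there 1125 rose and 1097 fell. In Icam1+ preadipocytes 1 of 16 rose and 3 fell (median -0.11), and in Cd142+ fibroblasts 0 of 15 rose and 3 fell (median -0.22). Of all genes, 885 of 12891 rose and 715 fell in Icam1+ preadipocytes, and 491 of 10994 rose and 457 fell in Cd142+ fibroblasts. None of the 16 tested in endothelial cells and of the 7 in SMC/pericytes passed, where 1.25% and 0.856% of all genes passed.

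Cnmd, the nearest relative of Tnmd and known as an inhibitor of vessel growth from cartilage, fell with age in all 3 ASPC classes. In Icam1+ preadipocytes it held 291, 193 and 148 UMIs (12, 6.31 and 6.11 CPM) in the young TN, 3D and 14D libraries and 68, 35 and 20 UMIs (2.71, 1.33 and 1.47 CPM) in the aged libraries. Every aged library lay below every young one, as for 11.3% of all genes tested in this class, and the log2 fold change was -2.15 (SE 0.14, adjusted p = 0.000160). In Cd142+ fibroblasts the UMIs were 25, 66 and 31 in young and 11, 7 and 0 in aged libraries (-2.44, SE 0.49, adjusted p = 0.00895), and in Dpp4+ fibroblasts 38, 39 and 16 against 4, 6 and 0 (-2.47, SE 0.46, adjusted p = 0.00471). The 6 chondrocyte markers, which leave Cnmd out, summed to 54.7 to 99.3 CPM in young and 73.5 to 115 CPM in aged libraries over Icam1+ preadipocytes and Cd142+ fibroblasts, and their part in the Cnmd values was not tested. Bricd5, Gkn1, Gkn2 and Sftpc were too low to test in any ASPC class, and Gkn3 did not pass (0.02, SE 0.46, adjusted p = 0.983 in Dpp4+ fibroblasts).

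Of the convertases, Pcsk5 fell in all 3 classes, by 1.31 (SE 0.10) in Dpp4+ fibroblasts, by 1.19 (SE 0.09) in Cd142+ fibroblasts and by 0.42 (SE 0.07) in Icam1+ preadipocytes on the log2 scale, with adjusted p of 1.50e-05, 1.60e-05 and 0.00934. Its levels in Dpp4+ fibroblasts were 55.3, 56.7 and 54.1 CPM in young and 29.0, 19.5 and 20.8 CPM in aged libraries. Furin itself did not pass (-0.06, SE 0.06, adjusted p = 0.560 in Dpp4+ fibroblasts), and Pcsk6 fell there by 0.22 (SE 0.07, adjusted p = 0.0408). Among the proteases Bace2, a beta-site cleaving enzyme of the amyloid precursor, fell in all 3 classes, by 1.01 (SE 0.12) in Cd142+ fibroblasts, 0.59 (SE 0.15) in Dpp4+ fibroblasts and 0.52 (SE 0.08) in Icam1+ preadipocytes, with adjusted p of 0.000282, 0.0204 and 0.00744. Adam17 and Bace1 fell in Dpp4+ fibroblasts by 0.32 (SE 0.07) and 0.21 (SE 0.07). App, which encodes the partner of ITM2B, fell in Dpp4+ fibroblasts by 0.24 (SE 0.06, adjusted p = 0.0147). Adam10, the shedding enzyme of ITM2B, did not pass (0.08, SE 0.06, adjusted p = 0.407 in Dpp4+ fibroblasts), and Aplp1 rose in Icam1+ preadipocytes by 1.18 (SE 0.28, adjusted p = 0.0340) from 16 to 20 UMIs in young to 17 to 46 in aged libraries.

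**Figure D5:**
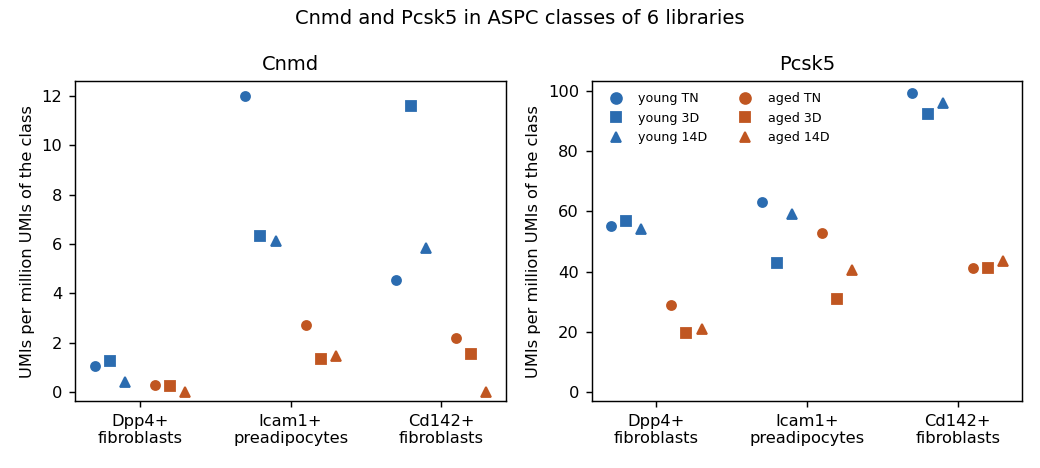
UMIs per 1000000 UMIs of the class (y axes) for Cnmd and Pcsk5 in the 3 ASPC classes (x axes), 1 point per library (blue young, orange aged; circle TN, square 3D, triangle 14D). Aged points of Cnmd lie below all young points in each class, as do those of 10.6 to 11.7% of all genes tested in these classes. For Pcsk5 the Icam1+ preadipocytes overlap between ages, with 52.8 at aged TN and 43.0 at young 3D.

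The genes whose pattern was most like that of Itm2a were sought over the 18 sums of 3 ASPC classes and 6 libraries, among 5545 genes with a mean of at least 20 CPM. The 5 highest Pearson correlations of log2(CPM + 1) were 0.95 for 1810058I24Rik, 0.88 for Postn, which encodes the matrix protein periostin, 0.88 for Ganab and 0.88 for Erlec1, which act in glycoprotein quality control in the endoplasmic reticulum, and 0.87 for Col4a5, a basement membrane collagen chain. They followed the order of Itm2a over a smaller range in most cases, as Ganab averaged 64.1 CPM in young and 52.9 CPM in aged sums. Among these 5 genes Postn differed most between the ages, at 351 and 54.8 CPM. Itm2b and Itm2c had correlations of 0.07 and 0.30 with Itm2a. The 18 sums share libraries and are not independent.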

How the data were processed

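The 6 libraries analysed, 1 per age and temperature, are single-cell RNA libraries of stromal vascular cells without CD45+ cells. The authors made the deposited counts with Cell Ranger 3.1.0, as the file headers say, on the mm10 transcriptome: UMI counts per gene and called barcode, with no normalization. The study's later filters and integration are not in these counts. Single-nucleus and whole-tissue data were not analysed here.

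Python 3.11.15 (scanpy 1.11.5, leidenalg 0.10.2, scipy 1.17.1) and R 4.3.3 (edgeR 4.0.16, DESeq2 1.42.0) were used. Barcodes with over 200 genes within 3 median absolute deviations per library were kept. ASPCs had a UMI of at least 5 of 10 ASPC markers and 1% of UMIs from that list, other lineages 3 of 10 markers and 0.1%. Cells of 2 or more lineages were left out, which also removes doublets between lineages, and no doublet caller was run. ASPC classes needed a margin of 0.2 between standardized list scores, and 5893 ASPCs between classes count only among all ASPCs. UMIs summed per library and class were compared in edgeR by the quasi-likelihood F test (filterByExpr, TMM factors, Benjamini-Hochberg over all genes, threshold 0.05) with age and temperature as terms and 2 residual degrees of freedom. Schwann and immune cells were not tested. Standard errors are each log2 fold change over the root of its F, and none is given for Itm2a by age. TMM factors were 0.960 to 1.04, and gene medians moved by at most 0.01. Differences between classes used 12 sums with library as a block. Clusters used 6000 variable genes, 15 components, 20 neighbours and a resolution of 0.5. Positions are from GENCODE M21 and start regions from RefSeq.

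The members, lists, tests and named genes (the members, list genes past the threshold and the 5 genes most correlated with Itm2a) were chosen with earlier results of these data known. Some values outside that rule are given for context and were picked after they were seen. Alternatives were DESeq2, RLE factors, no low-count filter, no second term, each library left out, cells thinned to 2000 UMIs, fixed limits on cells (1000 to 7000 genes, 10% mitochondrial UMIs), clusters in place of gates and a margin of 0.4, and for shares also unthinned cells and 1000 UMIs. Counts of 0 were read against a limit of 3 counts.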

Additional observations from a re-analysis of the deposited data

How the results depend on the processing

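The labels give no replicate numbers. Temperature as a term sets each aged library beside the young one of its temperature, and the fits without it are among the alternatives. Leaving out either library of a temperature thus gives the same age value, from the other temperatures. The Itm2a age values kept their direction in all alternatives run, from -3.11 to -2.99 for Dpp4+ fibroblasts, -2.22 to -2.07 for Icam1+ preadipocytes, -2.20 to -1.86 in Cd142+ fibroblasts and -1.44 to -0.82 in endothelial cells (log2). The values below are log2 fold changes, the causes of their moves were not tested, and adjusted p are from the tool named or edgeR.

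Tnmd by age passed in Dpp4+ fibroblasts with clusters in place of gates (-1.85, adjusted p = 0.0189), and without the low-count filter in Cd142+ fibroblasts (-1.08, adjusted p = 0.00664) and all ASPCs (-1.05, adjusted p = 0.0328). For 14D over TN, Itm2a in Cd142+ fibroblasts passed at -0.40 with DESeq2, -0.38 with RLE factors, -0.39 without the filter and with fixed limits on cells, -0.56 with thinned cells and -0.42 with clusters, with adjusted p over all alternatives from 1.59e-06 to 0.987. In endothelial cells it passed at -0.90 without the filter, -0.79 with thinned cells and -0.95 with fixed limits. These are among the 6 of 13 alternatives that passed there, and the highest adjusted p over all alternatives was 0.893. Tnmd by temperature in Cd142+ fibroblasts passed without the filter (0.12). Values that never passed changed sign for Itm2c in Cd142+ fibroblasts with thinned cells (-0.07 for age, 0.03 for 14D) and in SMC/pericytes with clusters (-0.18 for 14D).

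Leaving out 1 library at a time gave, for age, -1.87 to -0.58 for Tnmd in Cd142+ fibroblasts and -0.08 to 0.02 for Itm2c in all ASPCs. For 14D over TN it gave, for Itm2a, -0.32 to -0.10 in Icam1+ preadipocytes, -0.70 to -0.13 in Cd142+ fibroblasts, -0.26 to -0.02 in all ASPCs, -1.42 to -0.41 in endothelial cells and -1.07 to 1.69 in SMC/pericytes (-0.91 without the aged TN library). It gave -0.31 to -0.22 for Itm2c in Icam1+ preadipocytes, -0.07 to 0.21 for Itm2c and -0.06 to 0.18 for Itm2b in endothelial cells, and -1.66 (without the young 14D library, adjusted p = 0.00831) to 0.68 for Tnmd in Cd142+ fibroblasts.

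Shares of cells with a UMI, aged minus young in percentage points, moved with depth. For Itm2a they were -59.9 unthinned and -17.3 at 1000 UMIs in Dpp4+ fibroblasts, -52.2 and -13.2 in Icam1+ preadipocytes, and -39.2 and -12.3 in Cd142+ fibroblasts. For Itm2b they were -0.723 and 0.462 in Icam1+ preadipocytes, -1.39 and 1.30 in Cd142+ fibroblasts, and -1.15 unthinned in endothelial cells. Unthinned Itm2c gave -10.7 in Dpp4+, -14.7 in Icam1+, -14.1 in Cd142+ and -7.85 in endothelial cells. Tnmd gave -0.156 and 0.00563 in Dpp4+ fibroblasts, -0.0409 unthinned in Icam1+ and -0.534 unthinned in Cd142+ cells.

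The number of genes called for age moved by over 1.5 times, from 2222 to between 708 and 2844 in Dpp4+ fibroblasts, from 1600 to between 223 and 2280 in Icam1+ preadipocytes and from 948 to between 273 and 1513 in Cd142+ fibroblasts. The 124 calls in endothelial cells became 16 (without the young 3D library) to 692 (without the young TN library), and the 53 in SMC/pericytes 3 to 193. For temperature 905, 527 and 182 calls in these classes became 0 to 2321, 0 to 1977 and 1 to 798. Few cells limit the SMC/pericyte, Schwann and immune values, and few UMIs those of Tnmd.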

Other observations

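The few immune cells left after CD45 depletion (29 to 57 per library) also held Itm2a. Their Itm2a level was 59.0, 14.1 and 12 CPM in the young TN, 3D and 14D libraries and 47.7, 3.56 and 4.15 CPM in the aged libraries. The TN library was the highest at both ages, from 21 and 16 UMIs against 1 to 4 in the cold libraries, and no test was run. Itm2b in the same cells ranged from 954 to 2607 CPM and Itm2c from 104 to 364 CPM. Tnmd had 0 UMIs in immune and Schwann cells of all 6 libraries.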
